A study of Mus musculus with 8 samples.

Results

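Mouse CD8 T cells without protein kinase C theta (PKCθ) were compared with wild-type CD8 T cells after both had met the same peptide. The arrays titled PKC theta KO with N4 (2 arrays) were set against those titled WT with N4 (2 arrays), which are 4 of the 8 arrays of the series. All probe sets that carried 1 gene symbol on an autosome were members: 33729 of the 45037 probe sets that are no controls, standing for 17516 genes. Of these genes 12118 passed the filter on low signal and were tested. The remaining 5398 were too dim over all arrays and have no value here.

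All cells came from C57BL/6 mice. CD8 T cells were taken from spleens by positive selection on magnetic beads and placed for 18 h in culture with dendritic cells derived from bone marrow, with 10 T cells to each dendritic cell. In both groups the dendritic cells had been pulsed with N4, the ovalbumin peptide SIINFEKL, and were removed through CD11c before RNA was taken. RNA was measured on Affymetrix mouse expression arrays, 1 array per sample. The groups share one fitted spread with 2 further pairs of arrays: WT cells with non-pulsed dendritic cells (WT non-pulsed) and p50 cRel DKO cells with N4. The age of the mice, their antigen receptor, the allele behind the knockout and the genotype of the dendritic cells are not given in the sources used here. Nor do the labels say if the 2 arrays of a group stand for separate animals or cultures. The p-values take in no more than the spread between these samples, and how much of it is technical is not known. The 2 WT non-pulsed arrays, which enter the shared spread, differed in the X chromosome transcript Xist (6.05 and 11.84).

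PKCθ is a kinase of T cells that is brought to the contact with the antigen-presenting cell by signals of the antigen receptor and CD28. It passes the signal on to NF-kB, and it also feeds into AP-1 and calcium-driven NFAT. These factors meet on the promoter of Il2, the gene of the T cell growth factor interleukin 2, which made Il2 the classical readout of PKCθ.

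The arrays were alike in scale, with a 2% trimmed mean of 500.0 each. Those of number 1 had a lower median signal (33.6 in WT N4 and 36.7 in PKCθ KO N4) than those of number 2 (52.5 and 47.7). Markers of T cells were high. The 9 tested CD8 T cell markers averaged 12.55 and 12.42 on the WT N4 arrays and 12.75 and 12.71 on the PKCθ KO N4 arrays. All members averaged 8.85 to 8.93 on these arrays, on the scale of log2(signal + 16) that is used throughout. Only Cd8a and Cd8b1 among these markers, given below, tell CD8 from CD4 T cells, and Cd4 was not tested. B cell markers were not absent. The 19 tested averaged 8.67 and 7.15 in WT N4 and 9.05 and 8.14 in PKCθ KO N4, and 12.12 and 11.66 in WT non-pulsed cells. In bulk RNA more cells of a type and more RNA per cell cannot be told apart. Sex-linked transcripts, which are no members, separated the groups. The Y chromosome gene Eif2s3y read 10.78 and 11.20 in WT N4 against 6.73 and 5.51 in PKCθ KO N4, and Xist 5.18 and 6.65 against 12.44 and 12.33. WT non-pulsed arrays read 11.06 and 10.65 for Eif2s3y and 6.05 and 11.84 for Xist. The p50 cRel DKO arrays resembled the knockout, with 5.42 and 5.88 for Eif2s3y and 12.57 and 12.27 for Xist. In every comparison of PKCθ KO N4 with WT N4 the genotype and this difference cannot be told apart.

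Prkcq, which encodes PKCθ and lies on chromosome 2, read 11.74 and 11.35 in WT N4 cells and 11.00 and 10.75 in PKCθ KO N4 cells. The groups did not overlap, which held for 25.7% of all members. The difference of -0.66 (95% interval -1.14 to -0.19) was -0.73 and -0.60 within the 2 numbers, without passing (limma adjusted p = 1.00). One probe set of the array was named for Prkcq. The sources used here do not give its place relative to the altered part of the gene, so this signal does not check the label. Other kinases of the family are relatives with overlapping substrates. Of 10 tested PKC and protein kinase D genes, Prkcq included, 9 lay below WT N4, where 53.6% of all members lay. Of the 10, 6 were lower within both numbers, and Prkcb (-0.04) and Prkch (-0.01) lay near 0. Prkcq alone had an unadjusted p under 0.05, a threshold that 2.9% of all members met. The next were Prkd2 at -0.36 and the atypical isoform Prkci at -0.28, and the median of the list was -0.17.

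Il2 is shown in full because it had the second lowest p-value and one of the largest differences of all members. The 250 bases before its start, RefSeq, GRCm38.p6, chr3:37125955-37126204, minus strand, are printed 5′ to 3′ with letter matches in capitals.

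Il2: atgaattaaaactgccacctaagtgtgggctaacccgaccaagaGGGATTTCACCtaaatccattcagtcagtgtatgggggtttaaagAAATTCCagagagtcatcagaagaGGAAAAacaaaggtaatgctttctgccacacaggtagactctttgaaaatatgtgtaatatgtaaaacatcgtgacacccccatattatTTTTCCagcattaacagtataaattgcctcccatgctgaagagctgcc

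The capitals mark, from the left, a match to the wide NF-kB pattern (GGG and CC with 6 bases of any kind between them) that begins at position -206 from the start, the core AAATTCC of the CD28 response element at -161, and the NFAT core GGAAAA at -137 and, on the other strand, at -48. Both strands were searched, and the AP-1 pattern TGANTCA had no match in this window. The narrow NF-kB pattern, with 5 bases between GGG and CC, matched on both strands at -224 and is not in capitals. Of 27025 RefSeq promoter windows of this length 45.4% held the narrow NF-kB pattern, 43% the wide one, 20.6% GGAAAA, 6.87% TGANTCA and 3.59% AAATTCC. A match is a description of letters and says nothing of binding in these cells.

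Il2 signal read 11.34 and 11.75 on the 2 WT N4 arrays and 9.75 and 8.91 on the 2 PKCθ KO N4 arrays. Both knockout arrays lay under both wild-type arrays and above the 7.12 and 7.60 of WT non-pulsed cells. The difference was -2.22 (SE 0.30, 95% interval -2.91 to -1.53), which is 4.66-fold in signal plus the added constant, and it was -1.59 within replicate number 1 and -2.85 within number 2. It did not pass the test over all genes (limma adjusted p = 0.135). Against WT non-pulsed cells, a comparison in which peptide differs as well, Il2 was still higher in PKCθ KO N4 cells by 1.96 (limma adjusted p = 0.00117), and in WT N4 cells by 4.19 (limma adjusted p = 3.77e-05). The p50 cRel DKO arrays with N4 read 7.39 and 7.46.

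No autosomal gene passed in the fit described here, which has no term for replicate number. Of the 12118 tested, 0 had a Benjamini-Hochberg adjusted p under 0.05 in limma (0% of the background), and the lowest adjusted p was 0.0635. At an unadjusted p under 0.05 there were 352 genes, 2.9% of those tested, with 200 lower (1.65%) and 152 higher (1.25%) in the knockout. The median difference of all members was -0.02 and the median size of a difference, regardless of sign, 0.14. The median 95% interval reached 0.53 to either side, so a difference of that size in a typical gene could not be told from none. Groups of arrays did not overlap for 25.7% of members, and 124 members (1.02%) differed at least 2-fold. In the same fit, with the same errors, 4941 autosomal genes (40.8%) passed between WT N4 and WT non-pulsed cells, 4926 (40.7%) between PKCθ KO N4 and WT non-pulsed cells, and 61 (0.503%) between p50 cRel DKO N4 and WT N4 cells. These comparisons share arrays with each other. WT non-pulsed arrays also read higher than the others in markers of B cells, of dendritic cells and macrophages, and of neutrophils. Peptide and cell mix cannot therefore be told apart in the comparisons with WT non-pulsed cells. With a replicate block added to the fit, Tent5a passed between PKCθ KO N4 and WT N4 (limma adjusted p = 0.0253). In that fit 764 genes had an unadjusted p under 0.05.

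**Figure D1:**
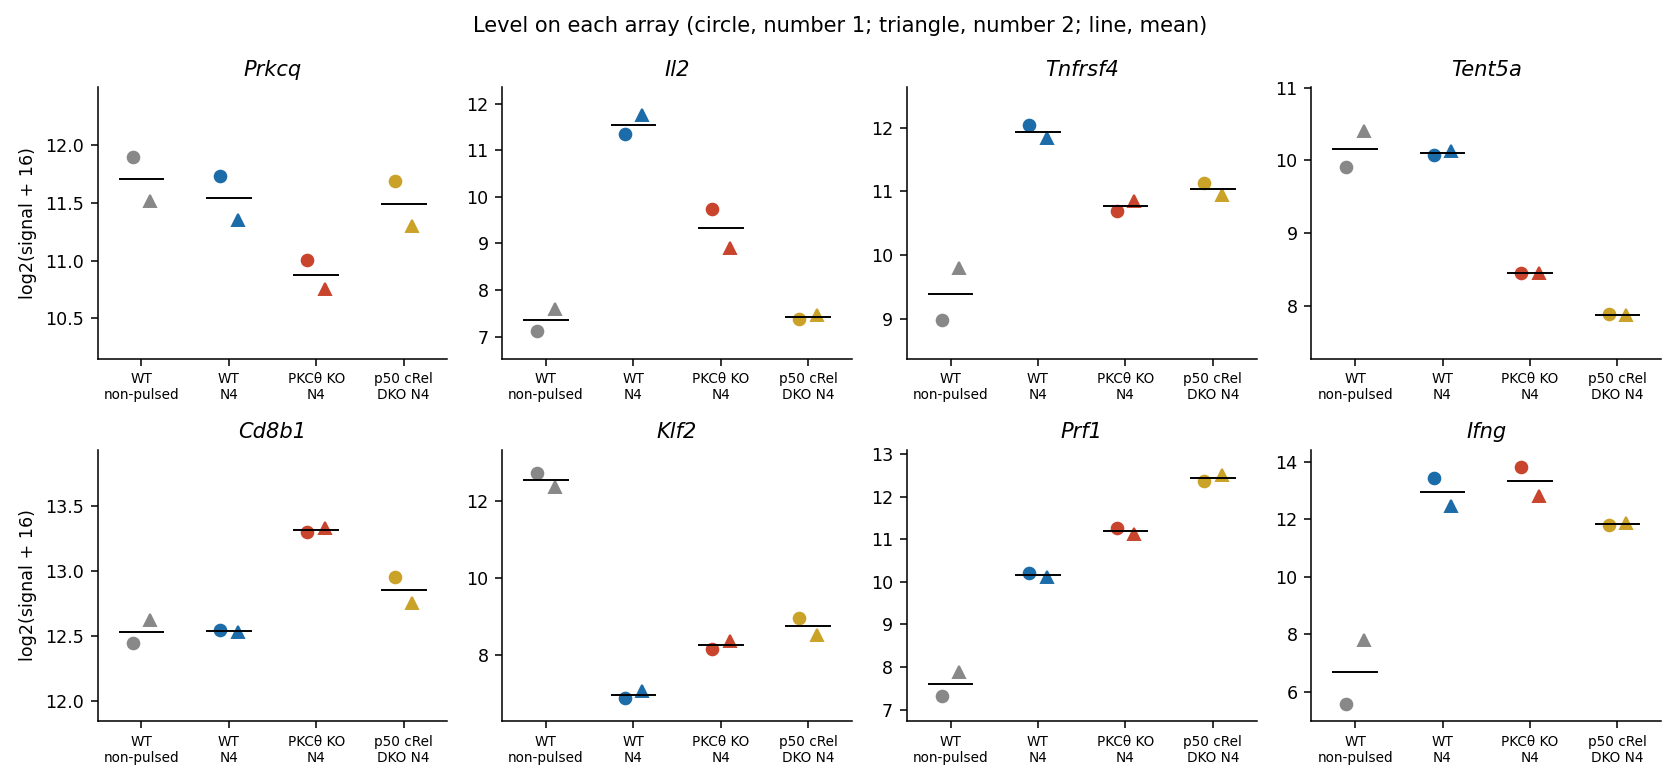
Level on each of the 8 arrays, as log2(signal + 16), for 8 genes in the 4 groups. Circles are replicate number 1, triangles number 2, lines the mean of 2 arrays, and the vertical axes differ and do not start at 0. The 2 knockout arrays lie under both WT N4 arrays for Prkcq, Il2, Tnfrsf4 and Tent5a, above them for Cd8b1, Klf2 and Prf1, and overlap them for Ifng.

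Tent5a, a noncanonical poly(A) polymerase on chromosome 9, had the lowest p-value of all members. It read 10.08 and 10.13 on the WT N4 arrays and 8.46 and 8.45 on the PKCθ KO N4 arrays. The arrays within each group nearly coincided, and the difference was -1.65 (SE 0.20, 95% interval -2.10 to -1.20, limma adjusted p = 0.0635), -1.62 and -1.68 within the numbers. WT N4 differed from WT non-pulsed cells (9.91 and 10.41) by -0.06, and against the latter Tent5a fell in the knockout by 1.71 (limma adjusted p = 0.000294). The p50 cRel DKO arrays read 7.89 and 7.87. Tent5a passed against WT N4 under several other settings: with the mean of the probe sets of a gene (limma adjusted p = 0.0493), without WT non-pulsed replicate 1 (0.0356) or 2 (0.0368), and with the B cell covariate described further on (0.0353). It also passed without both WT non-pulsed arrays (limma adjusted p = 0.0418), an alternative chosen after seeing the data. Over all alternatives its adjusted p ran from 0.0253 to 0.602.

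The other 8 of the 10 lower genes with the lowest p did not pass either. Pdgfb, a growth factor subunit, read 8.16 and 8.34 in WT N4 and 6.60 and 6.80 in PKCθ KO N4, a difference of -1.55 (limma adjusted p = 0.252). Its levels in p50 cRel DKO cells, 8.43 and 8.45, were close to those of WT N4. Another Pdgfb probe set differed by -0.91. Cd36, a scavenger receptor that takes up fatty acids, read 8.69 and 8.55 against 7.41 and 7.43, while WT non-pulsed cells had 12.63 and 12.13. It was lower by 1.20 in the knockout, as was another Cd36 probe set (-1.37), but a further one differed by only -0.24.

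Fam20a, a pseudokinase of the secretory pathway, had the largest difference of all members at -2.41 (95% interval -3.42 to -1.41, limma adjusted p = 0.343). It read 7.17 and 7.70 in WT N4 cells and 5.66 and 4.38 in PKCθ KO N4 cells. One knockout array (4.38) lay under the filter level of 5.38 for low signal and was as low as the 4.57 and 4.40 of WT non-pulsed cells. The other knockout array lay above these, so the size rests on dim signal and is uncertain. Ptprf, a receptor tyrosine phosphatase, differed by -1.54 and its other probe sets by -0.70 and -1.33. Enc1, an actin-associated kelch protein, differed by -1.24, Rgs2, a brake on G protein signalling, by -0.92, carboxypeptidase D, Cpd, by -0.78 and Dennd5a, a regulator of Rab GTPases, by -0.77. All 4 had the same sign within both numbers, as the rule for naming them required.

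Of the higher genes the lowest p belonged to the CD8 coreceptor. Cd8b1, its beta chain on chromosome 6, read 12.55 and 12.53 in WT N4 and 13.30 and 13.33 in PKCθ KO N4 cells. WT non-pulsed cells had 12.45 and 12.62, so the knockout arrays lay above all 4 wild-type arrays. The difference was 0.77 (SE 0.12, 95% interval 0.49 to 1.06, limma adjusted p = 0.252). Cd8a, the alpha chain, read 12.64 and 12.27 against 13.27 and 13.21, a difference of 0.78 (limma adjusted p = 1.00). The array holds 5 probe sets for Cd8a and all were higher in the knockout, by 0.71 to 0.98. In each the groups did not overlap, which held for 25.7% of all members. The 5 probe sets read 1 transcript from the same 4 RNA samples and are no independent replicates.

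A gene that was lower and one that was higher in WT N4 than in WT non-pulsed cells both lay higher in the knockout. Klf2, a transcription factor that holds naive T cells in a resting, recirculating state, read 12.71 and 12.36 in WT non-pulsed cells, 6.90 and 7.07 in WT N4 and 8.15 and 8.38 in PKCθ KO N4. Its difference was 1.28 (95% interval 0.79 to 1.78, limma adjusted p = 0.252). In WT N4 against WT non-pulsed cells Klf2 was lower by 5.55 (limma adjusted p = 6.3e-06). Markers of other cells also differed in that comparison, B cell markers as given above. Dendritic cell and macrophage markers averaged 10.68 and 10.55 in WT non-pulsed and 7.79 and 7.28 in WT N4 cells. Neutrophil markers averaged 10.36 and 10.73 against 6.55 and 5.69, so peptide and cell mix cannot be told apart there. Prf1, the pore-forming protein perforin, read 7.33 and 7.89 in WT non-pulsed, 10.20 and 10.11 in WT N4 and 11.25 and 11.13 in PKCθ KO N4. It differed by 1.04 (limma adjusted p = 0.385), with 12.38 and 12.50 in the double knockout, but another Prf1 probe set, which is much dimmer, differed by -0.11.

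Of the remaining 7 of the 10 higher genes, Rab4a and Atp8b4 were higher in both of their probe sets. Rab4a, a GTPase of recycling endosomes, read 7.02 and 7.46 in WT N4 and 8.61 and 8.85 in PKCθ KO N4 (1.49), and another Rab4a probe set differed by 1.66. Efcab7, an EF-hand protein, differed by 1.41, Slc9b2, a sodium/proton exchanger, by 1.30 and Atp8b4, a phospholipid flippase, by 0.93 and 0.87. Xdh, xanthine dehydrogenase of purine breakdown, differed by 1.57, Mreg, melanoregulin, by 1.74 and Ms4a4b, a T cell membrane protein, by 1.09, though another Ms4a4b probe set lay at -0.12. None of these passed (limma adjusted p = 0.252 for Rab4a and 0.426 for Ms4a4b).

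By size alone, among genes at an unadjusted p under 0.05, the largest further differences were those of Il1r1, the interleukin 1 receptor (-1.94), Sdcbp2 (-1.61) and P-selectin, Selp (-1.55) on the lower side. On the higher side stood the acetyltransferase-like gene Nat8 (1.80), Zbtb20, a transcriptional repressor (1.73), Nid1, a basement membrane protein (1.65), and the membrane protease Mme (1.45). Several rest on dim signal: Nat8 read 4.64 and 5.17 in WT N4, and Il1r1 5.74 and 4.76 in the knockout. The other 8 probe sets of Zbtb20, dimmer ones included, lay between -0.51 and 0.52, so its difference belongs to 1 probe set.

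The 2 replicate numbers were read against each other, since their differences rest on separate arrays. Across the 12118 members the difference within number 1 and that within number 2 had a Pearson r of 0.19 (Spearman's rho 0.16), given as a description, since genes are no replicates. The sign was the same for 6818 members, 56.3%. Of the 100 members most lower within number 1, 64 were lower within number 2, where 53.5% of all members were. Their median went from -1.28 to -0.34. Of the 100 most higher within number 1, 63 were higher within number 2 (46.5% of all), and their median went from 1.29 to 0.14. Chosen within number 2 and read in number 1, 69 of 100 remained lower and 78 of 100 higher, with medians of -0.22 and 0.42. In each case the median of the chosen members was smaller in the pair that had not been used to choose them. The arrays share only a number in their titles, and the reading depends on it: with the numbers crossed r was -0.44, and of 100 members chosen in 1 pair 14 to 26 kept their direction in the other. With the numbers as titled, 20 members were at least 2-fold lower and 27 at least 2-fold higher within both numbers.

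**Figure D2:**
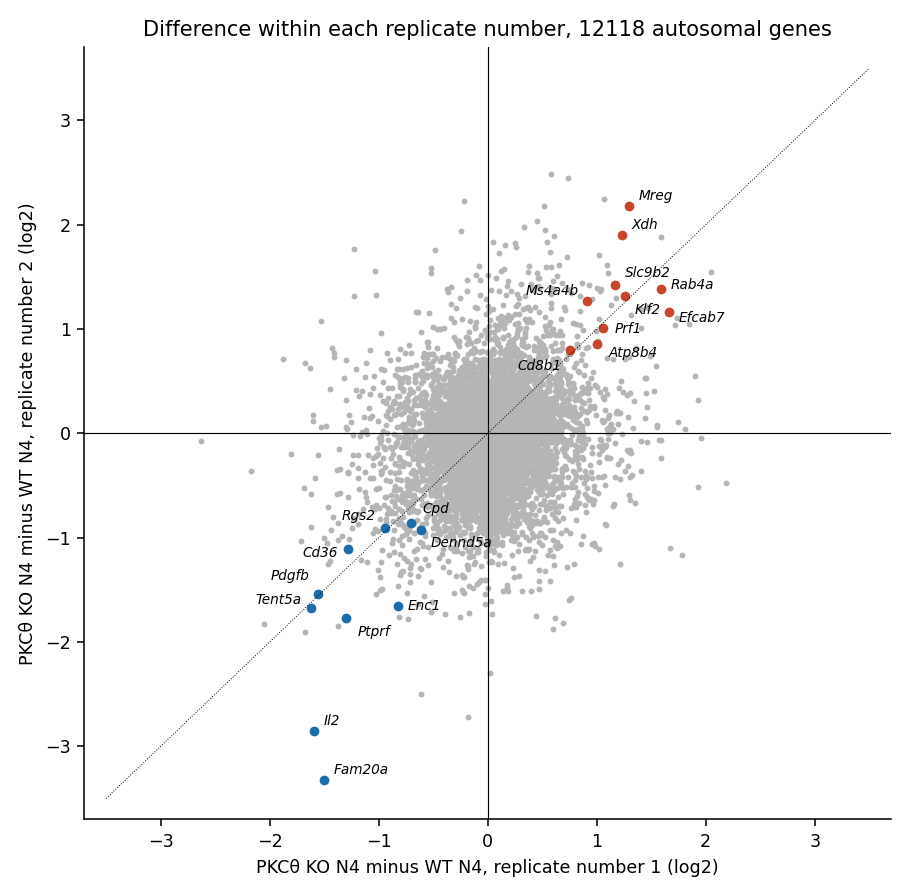
Difference of PKCθ KO N4 from WT N4 (log2) within replicate number 1 (horizontal) and number 2 (vertical) for 12118 autosomal genes in grey. Coloured points are the 10 lower (blue) and 10 higher (red) genes with the lowest p that have the same sign in both, and the dotted line marks equal differences. The grey cloud has a Pearson r of 0.19, and Tent5a and Cd8b1 lie on the dotted line while Il2 and Fam20a lie below it.

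Effector and activation genes that stand for the response to peptide did not pass either. Ifng, which encodes interferon gamma, read 13.45 and 12.45 in WT N4 and 13.81 and 12.83 in PKCθ KO N4 cells, which overlap. Its difference was 0.37, but the 95% interval of -1.10 to 1.84 left room for more than 2-fold either way. Gzmb, granzyme B, had an interval of similar width (-0.10, -1.51 to 1.31), though its arrays in these groups lay close. They read 14.11 and 13.91 in WT N4 and 14.10 and 13.72 in PKCθ KO N4. The shared fitted spread also takes in the WT non-pulsed arrays, which read 7.43 and 9.89. Il2ra, the inducible chain of the interleukin 2 receptor, differed by -0.35 (-0.97 to 0.27), and Rel by -0.37 (-0.96 to 0.22). For Myc, the driver of growth, the interval was narrower, -0.03 (-0.37 to 0.31), and did not reach 2-fold either way. These intervals are not adjusted for the number of genes.

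Il7r, the interleukin 7 receptor that is shut off with activation, lay further down in the knockout. It read 9.50 and 9.85 in WT N4 and 9.0 and 9.05 in PKCθ KO N4, a difference of -0.65 (95% interval -1.03 to -0.27, limma adjusted p = 1.00), and its other probe set differed by -0.89. Cd69, an early activation marker, differed by -0.45. Tnfrsf4 (OX40), a costimulatory receptor that appears after activation, read 12.03 and 11.84 in WT N4 and 10.69 and 10.85 in PKCθ KO N4, with 8.97 and 9.79 in WT non-pulsed cells. The groups did not overlap (25.7% of all members did not) and the difference was -1.16 (95% interval -1.73 to -0.60, limma adjusted p = 0.537). The p50 cRel DKO arrays read 11.13 and 10.95.

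**Figure D3:**
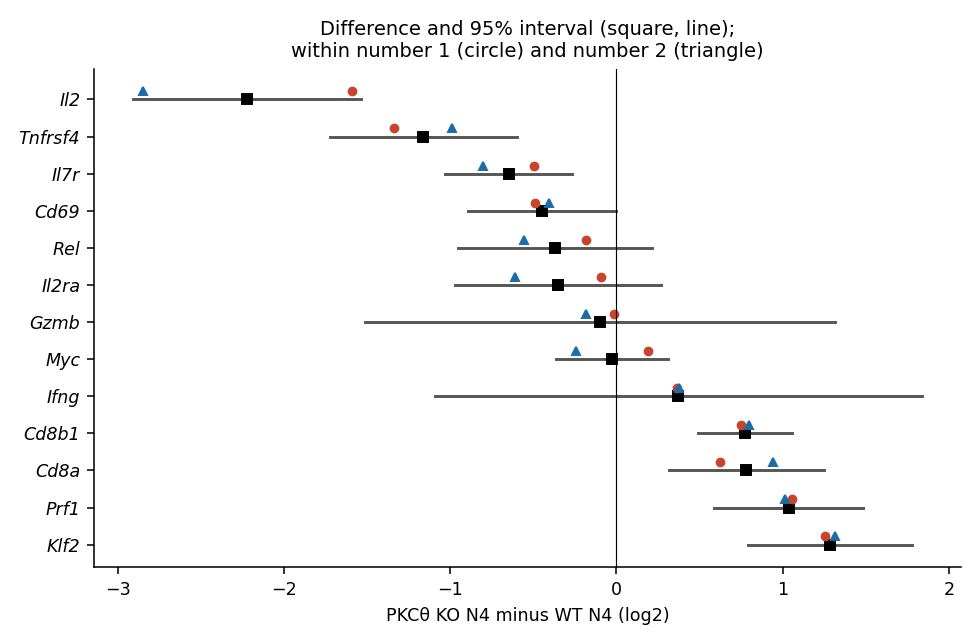
Difference of PKCθ KO N4 from WT N4 (log2) for 13 genes of activation and CD8 identity, with the unadjusted 95% interval of the limma fit (square and line) and the differences within replicate number 1 (circle) and 2 (triangle). The interval of Il2 ends at -1.53, that of Klf2 starts at 0.79, and those of Ifng and Gzmb reach past 1 in both directions. The spread behind each interval is fitted over all 4 groups, WT non-pulsed cells included.

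Gene lists were read by how many members lay on each side, with no test of a list. Of all 12118 members 6499 (53.6%) lay below WT N4 and 5619 above. In all, 482 of 548 listed genes were tested and 0 of them passed (limma adjusted p under 0.05, against 0% of all members), so the counts that follow are at an unadjusted p under 0.05, where 1.65% of members were lower and 1.25% higher.

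The route from the receptor to NF-kB came first. Of 19 tested genes of the PKCθ pathway 13 lay below and 6 above WT N4, with a median of -0.05 against -0.02 for all members. Prkcq itself was the single gene at an unadjusted p under 0.05. The ubiquitin ligase Traf6 differed by -0.30, the adaptor Bcl10 by -0.17, and the kinases Zap70 and Stk39 by 0.34 and 0.47. Of 24 genes for NF-kB subunits, their feedback inhibitors and targets 16 lay below and 8 above (53.6% of all members lay below), 0 of them at an unadjusted p under 0.05. The median was -0.15, and -0.12 and -0.15 within the numbers. Below WT N4 were the inhibitor genes Nfkbid (-0.45) and Nfkbie (-0.37), the survival gene Birc3 (-0.36) and the adaptor Traf1 (-0.31). Tnfaip3, the feedback inhibitor A20, differed by 0.46, and the cytokine subunit Ebi3 by 0.99. Without PKCθ KO N4 replicate 2 the median of the list was -0.03.

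Of 14 AP-1 and BATF factors 8 lay below and 6 above, 0 at an unadjusted p under 0.05 (median -0.16), with Batf3 at -0.85 and Atf3 at -0.39. Among 16 NFAT, Egr and Nr4a genes 2 were lower and 1 higher at that threshold. Egr1, an immediate early factor, read 11.73 and 11.20 in WT N4 and 10.94 and 10.12 in PKCθ KO N4 (-0.93). Nfatc2 differed by -0.58 and Ikzf3 by 0.58.

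Cytokines lay on both sides. Of 23 tested, 2 were lower (Il2 and Lif, -0.69) and 2 higher (Il10, 1.23, and the chemokine Ccl9, 0.99) at an unadjusted p under 0.05, and the median was -0.05. Il3, another cytokine gene of activated T cells, read 10.61 ± 0.11 (SD, n = 2) in WT N4 and 10.26 ± 0.44 in PKCθ KO N4, a difference of -0.35 (95% interval -1.0 to 0.30). The intervals of Il3 and Il2 do not overlap, and the difference between these genes was not tested. Il21 differed by -0.68, Xcl1 by 0.76 and Fasl by 0.71.

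Among 14 costimulatory and TNF receptors Tnfrsf4 and Tnfrsf25 (DR3) were lower at an unadjusted p under 0.05 and none was higher. Tnfrsf25 read 8.31 and 8.50 in WT N4 and 6.89 and 7.70 in PKCθ KO N4 (-1.11), and 6.07 and 6.12 in the double knockout. Icos differed by -0.56 and Tnfrsf9 (4-1BB) by 0.28. Of 21 activation markers and cytokine receptors 2 were lower (Il7r and Cd69) and 5 higher. The higher ones included both chains of the interleukin 18 receptor, Il18r1 (1.32) and Il18rap (1.01, and 1.30 in its other probe set), with Cd86 (0.98, also among the dendritic cell markers used here), Il6ra (0.71) and Cd24a (0.62). Il18r1 read 7.06 and 6.02 in WT N4, 8.16 and 7.56 in PKCθ KO N4 and 10.86 and 10.11 in WT non-pulsed cells. Its difference was 0.81 in a fit that took each array's average of B cell markers as a covariate.

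Of 14 genes of STAT5 and cytokine feedback 2 were lower, Stat4 (-0.47) and Stat5a (-0.31). Of 14 cytotoxic granule genes 4 were higher and 0 lower at an unadjusted p under 0.05: Prf1, Gzmk (1.02), the cathepsin Ctsw (0.78) and Nkg7 (0.51). Gzmk was dim in both groups, with 4.27 and 4.37 in WT N4 and 5.57 and 5.11 in PKCθ KO N4 around a filter level of 5.38, which it passed through the 7.59 and 8.05 of WT non-pulsed cells. The median of that list was 0.01. Among 14 genes of the T cell receptor complex and coreceptors Cd8a and Cd8b1 were higher and the inhibitory receptor Cd6 lower (-0.52). Its relative Cd5 differed by -0.59. The CD3 chains lay at 0.05 (Cd3e), 0.18 (Cd3d) and 0.40 (Cd3g), so the 2 CD8 chains had the largest differences of the list.

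Of 18 inhibitory receptors and regulators Ctla4 was lower (-0.83, with 12.39 and 13.16 in WT N4 and 11.67 and 12.22 in PKCθ KO N4). Spry2 (1.11) and Dgkz (0.30) were higher, and Lag3 lay at 0.20. Of 19 effector and memory transcription factors Gfi1 was lower (-0.70) and Maf higher (0.92), Maf by 1.81 within number 1 and 0.04 within number 2. Tbx21 differed by 0.04 and Eomes by 0.73. Of 25 naive and quiescence genes Klf2 and Ets1 (0.47) were higher, Igfbp4 (-0.82) and Lef1 (-0.46) lower, and the median was -0.01. Of 21 homing and adhesion genes Cxcr5 was higher (1.00) and Ccr6 lower (-0.60).

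Lists of growth, division and survival genes had medians near 0. Of 35 cell cycle genes Mki67 was lower (-0.69), 0 were higher, and the median was -0.07. The mitotic genes Plk1 (-0.66), Aurka (-0.40) and Top2a (-0.35) lay below WT N4. Of 24 Myc and ribosome biogenesis genes 0 differed at an unadjusted p under 0.05 (median -0.03), as did 0 of 19 amino acid and ATF4 genes (median 0.09). Among 17 glycolysis genes hexokinase Hk2 was lower (-0.34) while 15 lay above, with a median of 0.08. Of 17 survival and death genes Pmaip1 (NOXA) was higher (0.53), and Bcl2l1 and Bcl2 lay at -0.31 and 0.35. Among 24 interferon-stimulated genes Usp18 was higher (0.96).

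Cholesterol and fatty acid synthesis had all of its 23 tested genes below WT N4, where 53.6% of all members lay, and a median of -0.25. Of them 4 had an unadjusted p under 0.05: the desaturases Fads2 (-1.08) and Scd2 (-0.67), lanosterol synthase Lss (-0.51) and Acaca (-0.38). Fads2 read 8.03 and 7.37 in WT N4 and 7.23 and 6.01 in PKCθ KO N4, and Scd2 12.21 and 12.60 against 12.06 and 11.42. The median was -0.09 within number 1 and -0.41 within number 2. Without PKCθ KO N4 replicate 2 it was -0.02 and without PKCθ KO N4 replicate 1 it was -0.50, so 1 knockout array carried most of it. The list was known from earlier results of these data to lie lower, and its direction is no independent evidence.

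Markers of other cells differed too. All 19 tested B cell markers lay above WT N4 (median 0.60, 0.36 within number 1 and 1.06 within number 2), 2 of them at an unadjusted p under 0.05: Fcer2a (1.20) and Ebf1 (0.74). The groups overlapped in their average, given above, and without WT N4 replicate 2 the median turned to -0.13. Ms4a1 (CD20) read 9.67 and 6.57 in WT N4 and 10.25 and 9.06 in PKCθ KO N4. The 29 dendritic cell and macrophage markers had a median of -0.06, with averages of 7.79 and 7.28 in WT N4 and 7.62 and 7.46 in PKCθ KO N4. Lyz2 differed far more between arrays of a group (11.28 and 8.16 in WT N4, 10.50 and 8.59 in PKCθ KO N4). Fcgr3 differed less (7.13 and 6.99, 6.84 and 6.86). Some, such as C1qa and C1qc, lay under the filter level of 5.38 in both groups, so their count on each side is not given. Of the 29, Cd86 (0.98) and Ctss (0.37) had an unadjusted p under 0.05, both above. The 10 neutrophil markers had a median of 0.23, but several lay near or under the filter level of 5.38 in both groups, so their count on each side is not given. Of 5 NK cell markers 4 lay above (median 0.51), of which Nkg7 and Eomes are also T cell genes. The CD4 T cell and erythroid lists had 3 tested genes each. Izumo1r lay at -0.93 and the other CD4 T cell markers at 0.14 and 0.39. Of the erythroid markers Car2 lay at 0.92, Klf1 at -0.61 and Hbb-b2 at -0.21, the last under the filter level in both groups. In the fit with each array's average of B cell markers as a covariate Il2 differed by -2.20, Tent5a by -1.58, Klf2 by 1.35, Prf1 by 1.04 and Cd8b1 by 0.79. In that fit 12 genes passed (limma adjusted p under 0.05), against 0 without the covariate. They were Tent5a, Egr1 (-1.26), the phosphatase Dusp4 (-1.96), the mitotic gene Nusap1 (-1.10) and the myeloid genes Lyz2 (-1.55), Marco (-1.91) and Lcn2 (-1.36) below WT N4, and the NK receptor gene Klrd1 (1.59), Trp53inp1 (1.4), Ms4a4b (1.32), Rab4a (1.70) and Mme (1.79) above. Without the covariate Lyz2 differed by -0.17. With a coefficient for each group, the covariate works through the gap between the 2 arrays of a group. The B cell average was higher in number 1 in all groups but p50 cRel DKO (8.48 and 8.54). B cell level and replicate number are therefore mixed in this fit, and the part of B cells in the other results was not tested.

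A targeted gene carries its stretch of chromosome with it, so the neighbours of Prkcq were read as well. Of the 20 tested genes on each side, 1 of 40 (2.5%, against 2.9% of all members) had an unadjusted p under 0.05. It was Nebl, a nebulin-like actin-binding protein and the farthest of the genes on its side, which read 6.67 and 6.57 in WT N4 and 5.30 and 5.55 in PKCθ KO N4 (-1.20, with -1.66 in another probe set and -0.15 in one more that was too dim for the filter). The median size of a difference among the 40 was 0.19 against 0.14. The nearest neighbours were Sfmbt2 (-0.38) on one side and Pfkfb3 (0.18) on the other, and the cytokine receptor genes Il2ra (-0.35) and Il15ra (0.11) lie just beyond Pfkfb3.

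**Figure D4:**
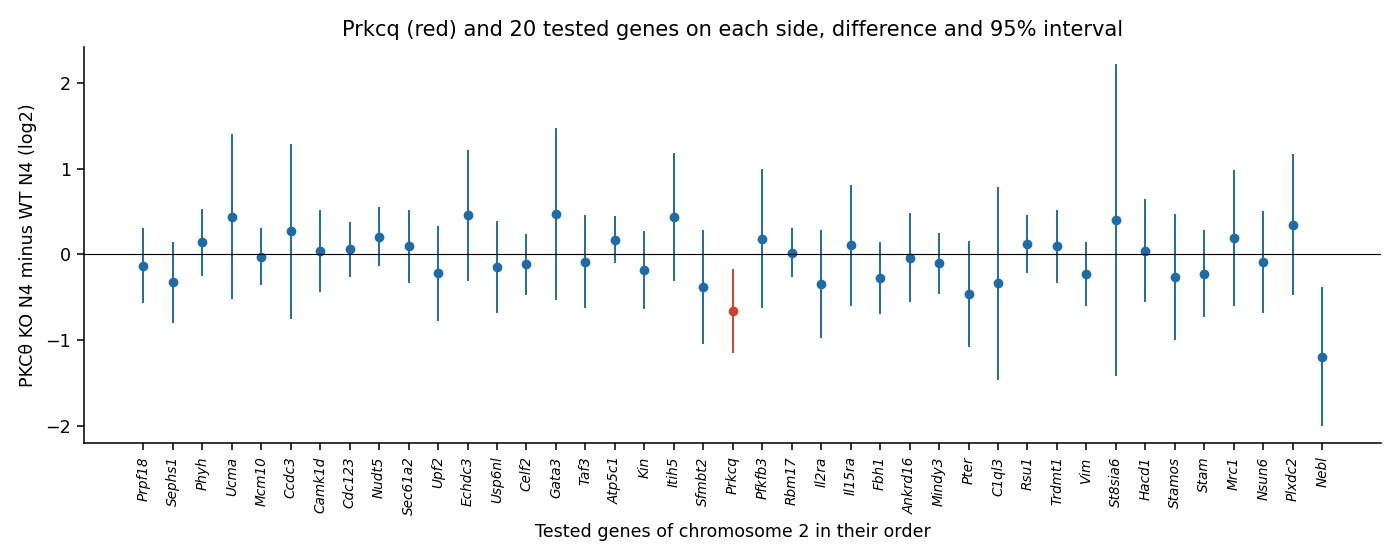
Difference of PKCθ KO N4 from WT N4 (log2, point) with its unadjusted 95% interval (line) for Prkcq in red and 20 tested genes on each side in blue, in their order on chromosome 2, not to distance. The intervals of Prkcq and of Nebl at the right end do not reach 0.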

How the data were processed

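The authors deposited an intensity for each probe set of each array. The submitters' processing notes name GCOS 1.4 and MAS5 as the software behind it. Each array had a 2% trimmed mean of 500.0. Of 45101 probe sets 64 controls were left out. The platform annotation gave 1 symbol for 34945 probe sets, several for 932 and none for 9160. Symbols and chromosomes came from RefSeq (GRCm38.p6), by Entrez identifier for 34741, and 1149 probe sets of the sex chromosomes and 67 without a chromosome were no members.

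Values were taken as log2(signal + 16). Probe sets with a mean under the 40th percentile (5.38) were dropped, and the brightest probe set of a gene was kept, which gave 12520 genes, sex-linked ones included. All 8 arrays entered 1 limma fit (version 3.58.1, R 4.3.3, lmFit and eBayes with trend, 4 residual degrees of freedom), with Benjamini-Hochberg adjustment over all 12520. The code of the fit was run on simulated data with planted differences and no effect of replicate number. That run checks the code and not how well the fit suits these arrays. The 2 arrays of a group limit the precision.

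Named were a fixed set of T cell genes, the 10 lowest p each way among genes with no overlap and the same sign within both replicate numbers, the 8 largest differences each way at an unadjusted p under 0.05, leading members of lists, neighbours of Prkcq at that threshold, and genes an alternative called. Other list members were chosen after their values were seen. Members, lists and rule were chosen with earlier results of these data known. Replicate numbers come from the titles, where an array without a number was taken as number 1. Alternatives were other constants, filters, scalings, probe set rules, covariates and arrays.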

Additional observations from a re-analysis of the deposited data

Results flagged for a closer look

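Xist, on the X chromosome and therefore no member, was 6.47 higher in PKCθ KO N4 than in WT N4 cells on the log2(signal + 16) scale, with 12.44 and 12.33 against 5.18 and 6.65 (limma adjusted p = 0.647). The WT non-pulsed arrays read 6.05 and 11.84. It stands out because it lies outside the autosomal genes described and far above its level in the 2 WT N4 arrays. The Y chromosome genes Kdm5d (-4.18, limma adjusted p = 0.0294), Uty (-3.60, limma adjusted p = 0.0176) and Eif2s3y (-4.88, limma adjusted p = 0.00948) passed the same test in the other direction. In these 4 arrays this difference and the genotype cannot be told apart.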

How the results depend on the processing

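Of 2554 values of 122 named genes under 21 alternatives, 2508 kept their direction and their side of the adjusted threshold, 17 passed it and 29 turned, in 15 genes. Tent5a passed (limma adjusted p = 0.0493) with the mean of the probe sets of a gene, and in the settings without 1 WT non-pulsed array (0.0356 and 0.0368). Genes passing between PKCθ KO N4 and WT N4 went from 0 to 1 with the mean of probe sets, to 1 without the 2 WT non-pulsed arrays, and to 12 with the B cell marker level as a covariate, and between 0 and 1 when each array was left out. The 352 genes at an unadjusted p under 0.05 became 576 with no filter, 1271 with the covariate and 274 to 893 when each array was left out (893 without PKCθ KO N4 replicate 1). With the covariate 3 list members passed in place of 0, 4 neighbours of Prkcq had an unadjusted p under 0.05 in place of 1, and the counts against WT non-pulsed cells were 1619 for WT N4 and 2058 for PKCθ KO N4. The neighbours were 0 with a filter at the 60th percentile and 1 to 3 when each array was left out. The 61 genes of p50 cRel DKO N4 against WT N4 were 31 with no trend, 141 with the covariate and 10 to 73 when each array was left out (10 without p50 cRel DKO N4 replicate 2). The cause was not tested.

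A replicate block in the fit let 1 gene pass, Tent5a (limma adjusted p = 0.0253), with 764 genes at an unadjusted p under 0.05, 3 neighbours of Prkcq and 193 genes for p50 cRel DKO N4 against WT N4. The arrays share only a number. The gap of number 1 from number 2, across genes, correlated at 0.58 between WT N4 and PKCθ KO N4 and at 0.25 to 0.39 between other groups. The block changed no other call named above.

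Differences that turned were small in most genes: Myc 0.030 under median centring, Acaca 0.0015 with the mean of probe sets, and with the covariate Gzmb 0.0052, Il21 0.016, Cd3e -0.10 and Tbx21 -0.12. Over the settings that leave out 1 array, Myc ran from -0.21 to 0.15, Gzmb from -0.29 to 0.087, Il2ra from -0.74 to 0.037, Ifng from -0.13 to 0.87, Prkd2 from -0.81 to 0.085, Il21 from -1.69 to 0.32, Cd3e from -0.12 to 0.23, Tbx21 from -0.28 to 0.36, Pfkfb3 from -0.28 to 0.64, Ebi3 from -0.11 to 2.10 and Ms4a1 from -0.017 to 3.08. The myeloid genes ran from -1.73 to 1.38 (Lyz2), -1.96 to 0.72 (Marco) and -1.40 to 0.53 (Lcn2). The median of all members was -0.02, 0.00 under quantile normalization and 0.04 under median centring. Genes near or below the filter level of 5.38 have little signal over background.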
